A study of Mus musculus with 9 samples.

Results

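The transcripts described here encode 6 surface proteins that are used to gate hematopoietic stem cells (HSCs) and progenitors by flow cytometry: Slamf1 (the protein CD150), Cd48, Flt3, Kit, Cd34 and Cd27. They were taken by name, each as the probe set that carried only its symbol and had the highest mean over the arrays, and they are 6 of 22180 genes represented on the array. All 6 had 1 such probe set, and all 6 passed the filter on dim genes, which kept 16636 genes. Expression was measured in HSCs sorted from bone marrow of mice aged 6 to 8 months, on 9 Affymetrix Mouse Gene 2.0 ST arrays, 3 per genotype. KO mice carried 2 floxed Bcl11a alleles and the Mx1-Cre transgene, Het mice carried 1 floxed and 1 wild-type allele with Mx1-Cre, and WT mice carried 2 floxed alleles without Cre. All groups were given 5 injections of poly(I:C), an RNA mimic that raises interferon. Mx1-Cre is driven by an interferon-responsive promoter that is active in many tissues besides blood, so deletion was not limited to HSCs, and WT mice lacked Cre as well as the deletion. The cells were enriched with beads for CD117, which is Kit, and sorted as lineage-negative, Sca-1-positive, Kit-positive, CD48-negative, Flt3-negative and CD150-positive, with YFP-positive or YFP-negative cells taken. The sources used here do not say which YFP gate applied to which array, nor whether animals were pooled.

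CD150 and CD48 are both receptors of the SLAM family, which bind one another or themselves on neighbouring blood cells. In mouse marrow CD150 is kept on stem cells and lost from most multipotent progenitors, while CD48 has the opposite pattern, so the pair separates stem cells from their offspring. Kit is the receptor tyrosine kinase for stem cell factor and is carried by stem cells and early progenitors, and Flt3 is a related kinase that appears as progenitors become primed for lymphoid fates. CD34 is a sialomucin that is low on most adult mouse HSCs and higher on progenitors, and CD27 is a receptor of the tumour necrosis factor family found on early progenitors and lymphocytes. The gate stated in the labels thus asked for 2 of the 6 proteins (Kit and CD150), excluded 2 (CD48 and Flt3) and made no demand on 2 (CD34 and CD27). A gate acts on protein at the surface, whereas the arrays measured RNA.

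The promoter windows of 3 members are shown because Slamf1 and Cd34 had the largest KO minus WT differences among the 6 and Cd27 was the only member with a match to the motif known for BCL11A. Each window runs from 250 bases before to 50 bases after the gene's start, 5′ to 3′ on the gene's strand, from RefSeq on GRCm38.p6. The Slamf1 window is chr1:171766882-171767181 (plus strand), the Cd34 window chr1:194938571-194938870 (plus strand) and the Cd27 window chr6:125236978-125237277 (minus strand). Capitals mark TGACCA, bound by BCL11A in human red cell precursors, and GATAA, the core bound by GATA factors, each searched on both strands.
Slamf1: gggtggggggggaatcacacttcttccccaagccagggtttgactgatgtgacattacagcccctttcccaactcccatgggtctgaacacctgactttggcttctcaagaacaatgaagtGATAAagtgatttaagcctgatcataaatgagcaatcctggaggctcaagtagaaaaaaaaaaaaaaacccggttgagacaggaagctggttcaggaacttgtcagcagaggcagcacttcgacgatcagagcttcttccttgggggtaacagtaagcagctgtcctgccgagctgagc
Cd34: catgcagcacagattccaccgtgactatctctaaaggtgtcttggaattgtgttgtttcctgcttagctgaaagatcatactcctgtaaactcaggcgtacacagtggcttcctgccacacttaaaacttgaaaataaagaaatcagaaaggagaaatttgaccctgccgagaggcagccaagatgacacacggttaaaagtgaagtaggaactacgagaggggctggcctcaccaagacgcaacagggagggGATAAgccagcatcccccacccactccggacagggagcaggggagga
Cd27: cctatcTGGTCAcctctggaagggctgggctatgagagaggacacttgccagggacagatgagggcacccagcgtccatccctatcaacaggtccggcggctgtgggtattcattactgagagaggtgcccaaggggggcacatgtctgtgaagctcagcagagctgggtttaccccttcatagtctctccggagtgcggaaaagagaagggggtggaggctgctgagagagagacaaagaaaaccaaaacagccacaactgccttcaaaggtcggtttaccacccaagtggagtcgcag
TGACCA, or its reverse complement TGGTCA, was found once in the Cd27 window, from position 7, and in none of the windows of the other 5 members, while 13.6% of 32851 RefSeq promoter windows of this length held it. GATAA was found once in the Slamf1 window, from position 122, and once in the Cd34 window, from position 254, and 25.4% of all windows held it. CANNTG, the E-box, matched in the windows of every member but Cd34, and in 72.3% of all windows. The motifs do not share letters in these windows. Slamf1 and Cd48 lie on chromosome 1 in the run of SLAM genes from Cd244a to Slamf6, with 1 protein-coding gene between them.

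Values below are log2 expression as deposited, 3 arrays per genotype, with means ± SD over n = 3. Absent transcripts read between 2.22 and 4.22 on these arrays, a range taken from Y-linked genes on the 4 arrays with high Xist and from Xist on the other 5, and values at or below 4.22 are counted as in that range. Bcl11a read 7.82, 7.90 and 8.66 on the KO arrays, 8.34, 8.37 and 8.89 on the Het arrays and 8.73, 8.81 and 8.38 on the WT arrays. The array labelled KO replicate 3 thus read inside the WT range, and the KO minus WT difference of each of the 6 members is also given without it. The part of the gene that was removed is not given here and the position of this probe set is not either, so its level does not show whether deletion took place. A second Bcl11a probe set read 7.26, 6.94 and 7.39 on the KO arrays, 6.97, 6.70 and 7.44 on the Het arrays and 6.38, 8.08 and 6.93 on the WT arrays. Array medians lay between 3.95 and 4.15, and the interquartile range of an array was lowest on WT replicate 1, at 2.22, and highest on KO replicate 1, at 2.83. By the sex-linked transcripts, 1 of 3 KO, 1 of 3 Het and 2 of 3 WT arrays came from female mice. Of 6 stem cell markers outside the gate, Hlf (6.31 to 8.65), Mecom (5.65 to 8.51) and Procr (5.05 to 7.50) read above the range of absent transcripts on every array. Hoxb5 (4.89 at its lowest) and Fgd5 (4.45 at its lowest) came closer to that range. Tek read 3.28 on WT replicate 1, inside it. Ly6a, the Sca-1 gene, had no probe set named by its symbol alone and is not analysed here.

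**Figure D1:**
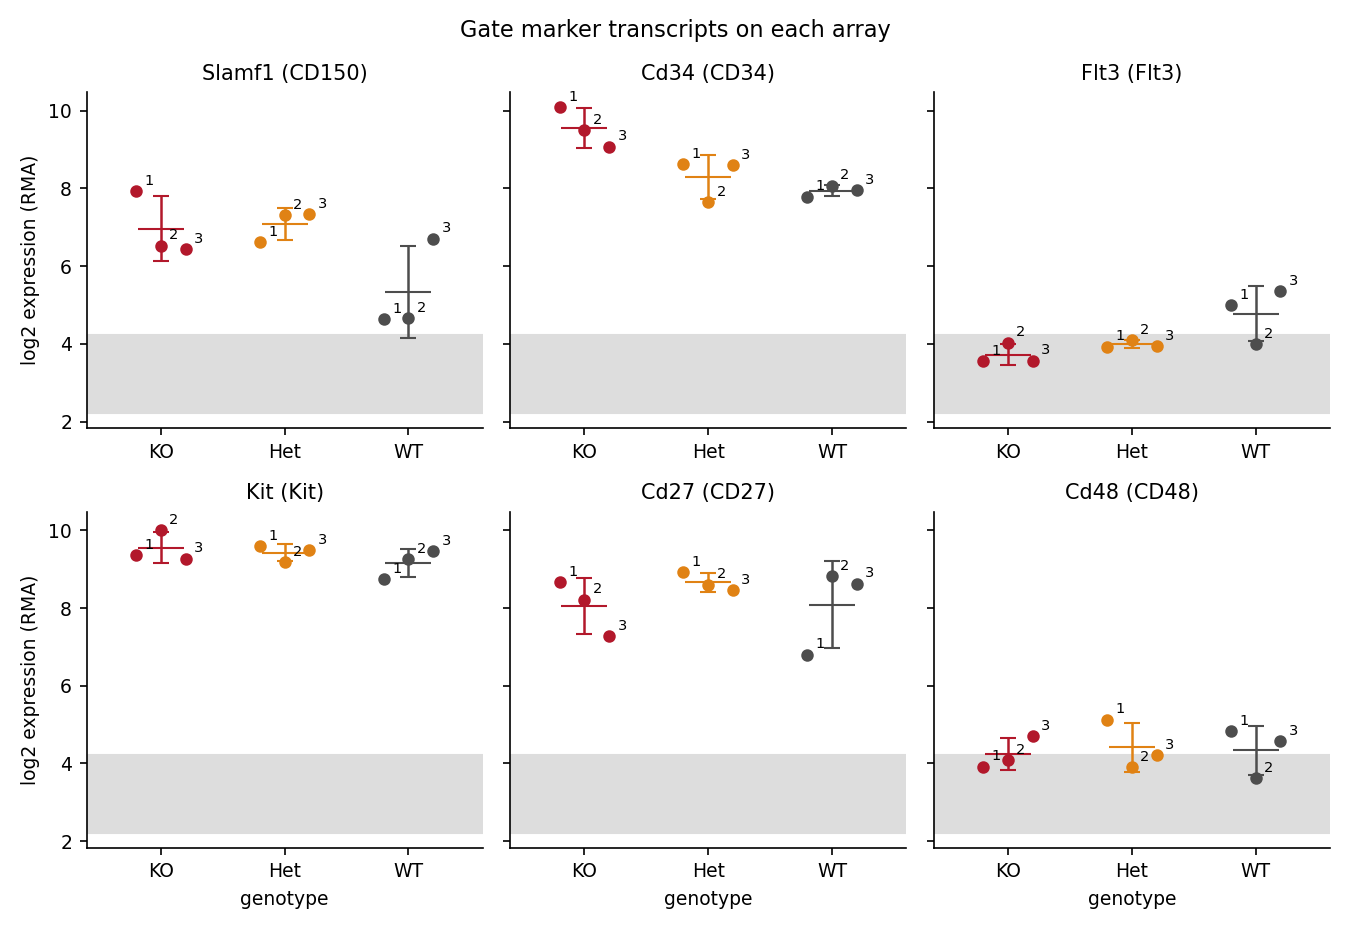
Log2 expression (vertical axis) of the 6 gate marker transcripts on each of 9 arrays, by genotype; points are arrays numbered by replicate, bars are the mean and SD of 3 arrays, and the grey band is the range from 2.22 to 4.22 in which absent transcripts read. Cd34 on the 3 KO arrays lay above every Het and WT array, Slamf1 was lowest on WT replicates 1 and 2, and Flt3 left the grey band only on WT replicates 1 and 3.

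Slamf1, the transcript of the protein that the gate requires, was the most variable of the 6 and read higher on most KO and Het arrays than on most WT arrays. It read 7.94, 6.53 and 6.43 on the KO arrays, 6.61, 7.32 and 7.34 on the Het arrays and 4.64, 4.67 and 6.71 on the WT arrays. WT replicates 1 and 2 were the lowest of all 9 arrays, and WT replicate 3 read above 2 KO arrays and 1 Het array, so that both deleted groups overlapped WT. The means were 6.97 ± 0.844 in KO, 7.09 ± 0.416 in Het and 5.34 ± 1.19 in WT cells. KO cells averaged 3.09-fold above WT (difference 1.63, SE 0.578, 95% interval 0.34 to 2.91, adjusted p = 0.543) and Het cells 3.36-fold above WT (1.75, interval 0.47 to 3.03, adjusted p = 0.889). Neither difference passed the test. KO and Het differed by -0.12, with an interval of -1.41 to 1.16. The cells had all been sorted as CD150-positive, so the spread of 4.64 to 6.71 within WT lay among samples that had all passed a CD150 gate. How far array quality or the YFP gate entered this spread was not tested. In sorted bulk samples, fewer cells that carry a transcript and less of it per cell cannot be told apart.

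The KO minus WT difference of Slamf1 varied in size, though not in sign, with the arrays that entered. It was 1.14 without KO replicate 1, 1.28 without WT replicate 1, 1.29 without WT replicate 2 and 2.31 without WT replicate 3, and 1.90 without the array labelled KO replicate 3. With the interquartile range of each array as a term it was 1.06, more than 1.5 times smaller, and the Het minus WT difference was then 1.49. Among the females, 1 KO array stood 0.75 above the mean of 2 WT arrays, and among the males 2 KO arrays stood 2.57 above 1 WT array. The Het arrays, 1 female and 2 male, stood 1.67 above WT in females and 2.29 in males.

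Kit, the other protein that the gate requires and the target of the bead enrichment, read well above the range of absent transcripts on all arrays, with little spread. Its values were 9.37, 10.01 and 9.27 on the KO arrays, 9.60, 9.19 and 9.49 on the Het arrays and 8.75, 9.25 and 9.47 on the WT arrays. WT replicate 1 was the lowest and KO replicate 2 the highest, and the 3 genotypes overlapped. KO cells averaged 9.55 ± 0.401, Het cells 9.43 ± 0.212 and WT cells 9.16 ± 0.369. The KO minus WT difference of 0.39 (SE 0.283, interval -0.24 to 1.02, adjusted p = 0.717) and the Het minus WT difference of 0.27 (interval -0.36 to 0.90) did not pass. KO minus WT was 0.53 without the array labelled KO replicate 3, 0.16 without KO replicate 2 and 0.19 without WT replicate 1, and Het minus WT was 0.07 without WT replicate 1, 0.18 without Het replicate 1 and 0.43 without WT replicate 3. When the interquartile range was a term, KO minus WT was 0.15 and Het minus WT 0.16. The intervals leave room for a KO level up to 1.02 above WT on the log2 scale, so they do not show that the levels were alike.

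Cd48, which the gate excludes, was near the level of absent transcripts in every genotype. It read 3.92, 4.08 and 4.71 on the KO arrays, 5.13, 3.90 and 4.21 on the Het arrays and 4.83, 3.63 and 4.57 on the WT arrays. On 5 of 9 arrays it read between 2.22 and 4.22 (2 KO, 2 Het and 1 WT), and Het replicate 1, WT replicate 1 and KO replicate 3 read highest. The KO minus WT difference was -0.11 (SE 0.404, interval -1.0 to 0.79, adjusted p = 0.949) and the Het minus WT difference 0.07 (interval -0.83 to 0.97, adjusted p = 0.999). Without the array labelled KO replicate 3, KO minus WT was -0.34. A dim transcript that is present can also read in this range, and RMA compresses differences there.

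Flt3, the other excluded protein, was dim on all arrays but 2, both of them WT. It read 3.55, 4.03 and 3.57 on the KO arrays, 3.93, 4.10 and 3.95 on the Het arrays and 4.99, 3.99 and 5.36 on the WT arrays. All KO and Het arrays and WT replicate 2 lay in the range of absent transcripts, and WT replicate 2 read below KO replicate 2, so the groups overlapped. The mean was 3.72 ± 0.272 in KO, 3.99 ± 0.0929 in Het and 4.78 ± 0.709 in WT cells. KO minus WT was -1.06 (SE 0.334, interval -1.81 to -0.32, adjusted p = 0.475) and Het minus WT -0.79 (interval -1.53 to -0.04, adjusted p = 0.989), and neither passed. By sex, the difference was -1.61 in females, with 1 KO array set against 2 of WT, and -0.20 in males, with 2 KO arrays set against 1 of WT. Both WT arrays with Flt3 above the absent range were female. Without WT replicate 3 the Het minus WT difference was -0.50, more than 1.5 times smaller, and without WT replicate 2 it was -1.18. KO minus WT was -0.99 without the array labelled KO replicate 3. Because the KO level lies in the range of absent transcripts, no fold is given.

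Other transcripts of lymphoid-primed and multipotent progenitors were read beside Flt3. Cd52, a small glycoprotein of lymphocytes and progenitors, read 4.51, 3.88 and 4.87 on the KO arrays, 5.60, 4.47 and 3.89 on the Het arrays and 7.59, 4.89 and 6.65 on the WT arrays. The 2 WT arrays with Flt3 above the absent range were also the 2 highest for Cd52. The KO and WT arrays of Cd52 did not overlap, but the difference of -1.96 did not pass (adjusted p = 0.508). Dntt, which adds bases to antigen receptor genes in lymphoid progenitors, and Il7r, the interleukin receptor of those cells, lay in the range of absent transcripts on all 9 arrays. The progenitor list has 7 genes with a probe set and includes Flt3, Cd48 and Cd34 themselves, of which Cd34 read higher in KO. The mean over the 7 ranged from 4.29 to 4.64 on KO arrays, 4.24 to 4.74 on Het arrays and 4.30 to 4.96 on WT arrays. The part of progenitor cells in the Flt3 and Cd52 readings was not tested.

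Cd34, on which the gate made no demand, was the only member whose KO arrays overlapped neither other genotype. It read 10.09, 9.50 and 9.08 on the KO arrays, 8.63, 7.64 and 8.60 on the Het arrays and 7.79, 8.07 and 7.95 on the WT arrays. Every KO array, the one labelled KO replicate 3 included, lay above every Het and every WT array, while Het and WT overlapped. Over all genes, KO and WT did not overlap for 13.8% and KO and Het for 9.82%, in either direction. With 6 members, 1 such gene is near each of these shares. KO cells averaged 9.56 ± 0.507, Het cells 8.29 ± 0.563 and WT cells 7.94 ± 0.140. KO exceeded WT 3.07-fold (difference 1.62, SE 0.336, interval 0.87 to 2.37) with an adjusted p of 0.206, and exceeded Het 2.41-fold (1.27, interval 0.52 to 2.01) with an adjusted p of 0.998, so that neither passed over all genes. By exact permutation (two-sided) both comparisons gave p = 0.1, the smallest that 3 arrays against 3 allow. Het minus WT was 0.35 (interval -0.39 to 1.10), with 0.18 without Het replicate 1, 0.20 without Het replicate 3 and 0.68 without Het replicate 2.

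Every KO array of Cd34 lay above every WT array, so leaving out an array or splitting by sex could change only the size of the difference. Its sign was fixed by that separation. The KO minus WT differences of Slamf1, Flt3 and Kit also kept their sign in these fits and within each sex. KO minus WT ranged from 1.35 to 1.86 over the 9 fits that left out 1 array each, with 1.86 without the array labelled KO replicate 3, and it was 1.31 with the interquartile range as a term. By sex it was 1.21 in females (1 KO, 2 WT) and 1.72 in males (2 KO, 1 WT). Another probe set, which the annotation gives to both Cd34 and the predicted gene Gm16897 and which was therefore not used for either, read 4.30, 5.04 and 4.78 on the KO arrays, 4.05, 3.32 and 3.59 on the Het arrays and 3.10, 4.23 and 5.51 on the WT arrays, with overlap of KO and WT. Cd34 is also a member of the progenitor list above. Of the 6 members of that list that were tested, it was the only one higher in KO than in WT.

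Cd27, also outside the stated gate, read high on 7 arrays and lower on 2. It read 8.67, 8.22 and 7.27 on the KO arrays, 8.92, 8.60 and 8.46 on the Het arrays and 6.80, 8.82 and 8.63 on the WT arrays. WT replicate 1 was the lowest and KO replicate 3 the next lowest, and the genotypes overlapped. The means were 8.05 ± 0.715 in KO, 8.66 ± 0.236 in Het and 8.08 ± 1.12 in WT cells. KO minus WT was -0.03 (SE 0.521, interval -1.19 to 1.13, adjusted p = 0.992), Het minus WT 0.58 (interval -0.58 to 1.73) and KO minus Het -0.61 (interval -1.76 to 0.55). These intervals span more than a log2 unit on either side of the KO minus WT estimate, so a sizeable difference in either direction was not detectable with 3 arrays per genotype. KO minus WT was -0.67 without WT replicate 1, 0.34 without WT replicate 2, 0.24 without WT replicate 3 and 0.36 without KO replicate 3.

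**Figure D2:**
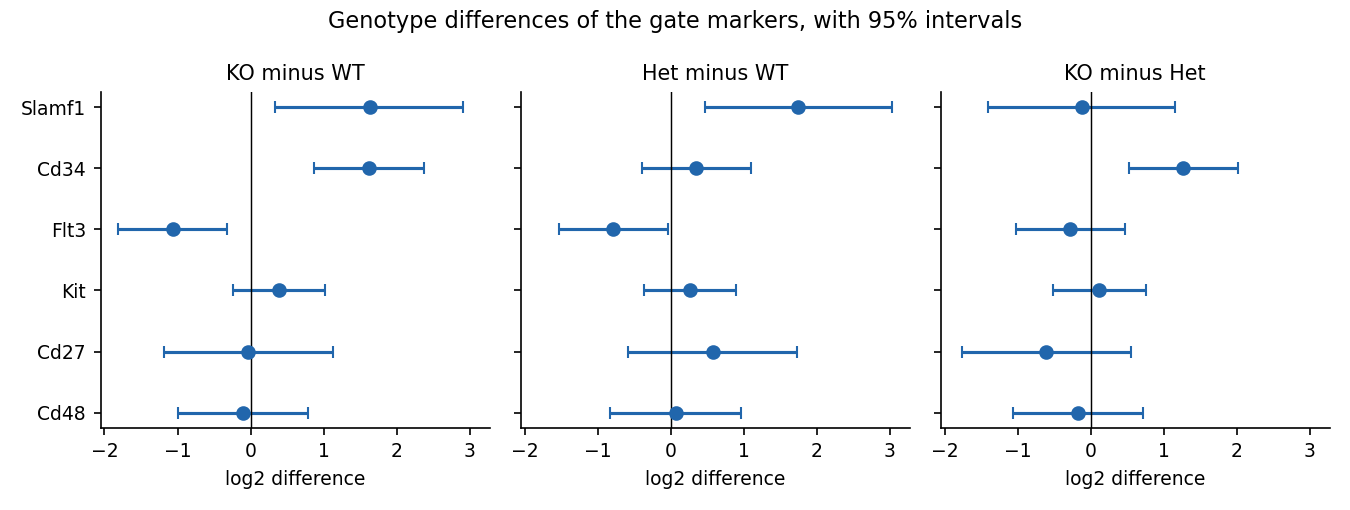
Log2 differences (horizontal axis) of the 6 gate markers for KO minus WT, Het minus WT and KO minus Het; points are limma estimates over 9 arrays and bars their 95% intervals. For KO minus WT the interval lay above 0 for Slamf1 and Cd34 and below 0 for Flt3 before adjustment over all genes, and none of the 18 differences passed after it.

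None of the 6 members was called at an adjusted p under 0.05 in any comparison by limma, where 0.0421% of 16636 genes were called for KO with WT, 0% for Het with WT and 0% for KO with Het. At an unadjusted p under 0.05, 3 of 6 members differed between KO and WT (Slamf1, Flt3 and Cd34), against 8.21% of all genes (5.4% higher and 2.81% lower in KO). Between Het and WT it was 2 of 6 (Slamf1 and Flt3), against 4.89% (3.12% higher and 1.77% lower in Het), and between KO and Het 1 of 6 (Cd34), against 4.56% (2.61% higher and 1.95% lower in KO). The groups did not overlap for 1 of 6 members in KO with WT, against 13.8% of all genes (6.51% higher and 7.32% lower in KO). The same held for 1 of 6 in KO with Het, against 9.82% (4.42% higher and 5.4% lower in KO), and for 0 of 6 in Het with WT, against 8.41% (4.51% higher and 3.9% lower in Het). The median difference over the 6 was 0.18 for KO minus WT, where the median over all genes was -0.04, 0.31 for Het minus WT (-0.01 over all genes) and -0.15 for KO minus Het (-0.02 over all genes). KO minus WT and Het minus WT share the WT arrays.

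**Figure D3:**
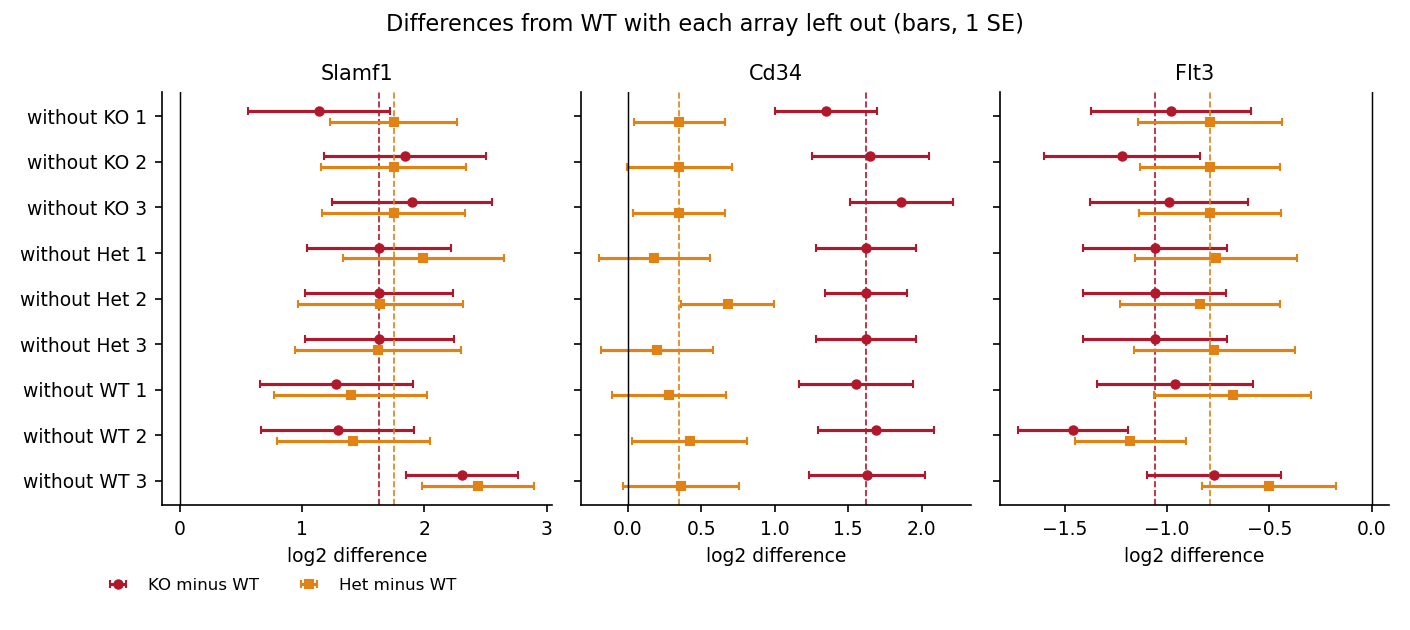
Log2 differences from WT (horizontal axis) of Slamf1, Cd34 and Flt3 with each array left out in turn (rows); circles are KO minus WT, squares Het minus WT, bars 1 SE and dashed lines the values over all 9 arrays. The KO minus WT difference of Slamf1 lay between 1.14 and 2.31, and that of Cd34 between 1.35 and 1.86.

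The members differed in how far arrays of the same genotype lay apart. Slamf1 had a within-genotype SD of 0.874, larger than that of 95.3% of the tested genes, and Cd27 one of 0.777, larger than that of 92.4%. Cd48 (0.572), Cd34 (0.445) and Flt3 (0.441) lay above the median of 0.368 over all genes, and Kit (0.338) below it. Array by array, WT replicate 1 was the lowest of the 9 for Slamf1, Kit and Cd27 and the second highest for Cd48 and Flt3. The same array was also the lowest for Hlf (6.31), Mecom (5.65), Procr (5.05), Fgd5 (4.45) and Tek (3.28), genes that mark stem cells and were not used in the gate. KO replicate 3 had the second lowest Cd27 and Procr (5.15), yet its Hlf (8.40), Mecom (8.20) and Hoxb5 (7.12) lay with the other KO arrays. WT replicate 1 had the smallest interquartile range of the 9 arrays, and the part of array quality in its readings was not tested.

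**Figure D4:**
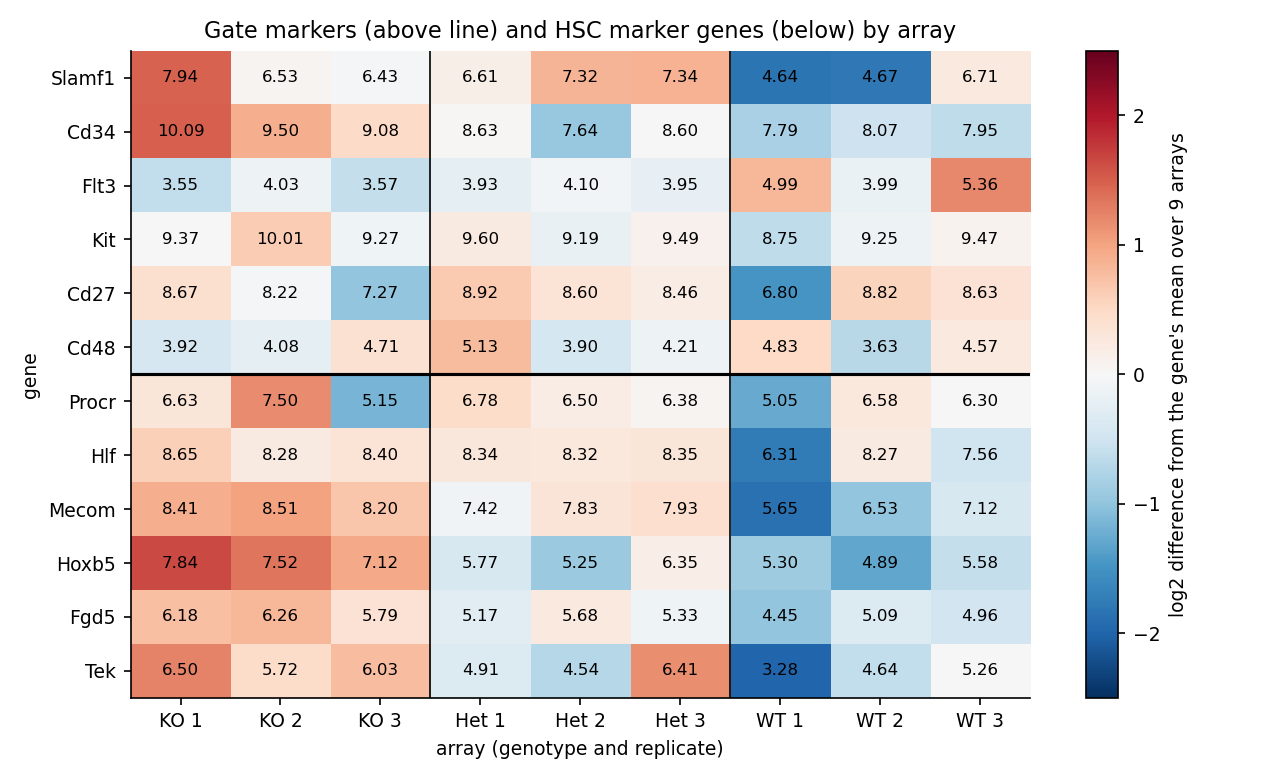
Log2 expression of the 6 gate markers (above the line) and of 6 stem cell genes outside the gate (below the line) on each array, in columns by genotype and replicate; numbers are levels and colours the difference from the gene's own mean over 9 arrays. WT replicate 1 was the lowest array for Slamf1, Kit and Cd27 above the line and for 5 of the 6 genes below it.

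No pair of members could be shown to vary together over the arrays. Of 15 pairs, Pearson's r over the 9 arrays ran from -0.64 (Flt3 with Cd34) to 0.53 (Kit with Cd34 and with Cd27), and no pair passed after adjustment over the 15 (smallest adjusted exact permutation p = 0.576). For Flt3 with Cd34, rho was -0.77 with an exact permutation p of 0.0214 (adjusted 0.321), against 0.0597 for r (adjusted 0.576). That r was -0.69 without WT replicates 3 and 1 and -0.23 for deviations from the genotype means. Slamf1 and Cd48, which the gate uses in opposite directions, had an r of -0.13 (exact permutation p = 0.728, adjusted 0.824) and a rho of -0.27 (0.493, adjusted 0.752), and r was -0.67 without WT replicates 1 and 2. Kit with Cd27 had an r of 0.53 (exact permutation p = 0.175, adjusted 0.576) and a rho of 0.27 (0.493, adjusted 0.752), with an r of 0.63 for deviations from the genotype means. Its r was 0.35 without KO replicate 2 and WT replicate 1.

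Other genes followed single members closely over the 9 arrays, as a description of likeness among 14399 named genes. For Slamf1 the 3 most alike were Sin3a (r = 0.994), a scaffold of histone deacetylase complexes, Slc45a4 (0.971) and Abhd12 (0.959), and 18 genes had an r of at least 0.9. Sin3a read 7.58, 7.13 and 7.13 on the KO arrays, 7.13, 7.42 and 7.35 on the Het arrays and 6.36, 6.47 and 7.13 on the WT arrays, and like Slamf1 it was lowest on WT replicates 1 and 2. For Cd34 they were Fam32a (0.989), Tmx4 (0.969) and Slc25a27 (0.965), with 27 genes at 0.9 or more. For Kit they were Itga6 (0.956), the integrin chain CD49f, Aff1 (0.95) and Mrps9 (0.949). Cd27 was matched by Metap1d (0.977), Rbm38 (0.962) and Pcgf1 (0.957), Flt3 by Rcan1 (0.941), Spryd3 (0.918) and Etv3l (0.908), and Cd48 by Rtp1 (0.913), Camk4 (0.908) and Nxt1 (0.882). An r of at least 0.9 was reached by 20 genes for Kit, 14 for Cd27, 5 for Flt3 and 2 for Cd48. The points are 9 arrays, on which all genes share the same RNA and its amplification, and no test is attached.

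Among the 9 SLAM family receptors, all tested, none passed in any comparison, and Slamf1 was the only one with an unadjusted p under 0.05 for KO with WT. For KO minus WT 5 were higher and 4 lower, with a median of 0.16. Slamf9 differed by -0.71, Ly9, a receptor of lymphocytes, by 0.37 and Cd244a, the receptor of CD48 known as 2B4, by 0.36. Cd244a read 4.16, 4.78 and 3.89 on the KO arrays, 3.46, 2.98 and 3.66 on the Het arrays and 4.01, 3.75 and 3.99 on the WT arrays. Its KO and Het arrays did not overlap (difference 0.91, adjusted p = 0.998), nor did its Het and WT arrays, with all Het and WT arrays in the range of absent transcripts. Among the 7 adaptors and phosphatases of SLAM tails, 5 were tested and 0 passed. The phosphatase Ptpn6 read 8.15, 8.18 and 8.57 on the KO arrays and 7.0, 7.48 and 7.85 on the WT arrays, without overlap (difference 0.86, adjusted p = 0.565), and Inpp5d, the lipid phosphatase SHIP1, differed by 0.78, Sh2d1b2 by -0.71 and Ptpn11 by 0.61.

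Kit and Flt3 belong to the class III receptor kinases, of which 4 of 5 were tested and none passed; Csf1r, the receptor of macrophages, differed by -0.49 between KO and WT and Pdgfrb by 0.10. Kitl, the ligand of Kit, read 2.19 to 3.11 on all arrays, which lies in the range of absent transcripts, and Flt3l shared its probe set with another gene and was not used. Of the 19 tested genes of Kit and Flt3 signalling, 0 passed, 14 were higher and 5 lower in KO than in WT, and the median difference was 0.27. Averaged over the 20 with a probe set, levels were 6.34, 6.32 and 6.26 on the KO arrays. They were 5.95, 6.24 and 6.41 on the Het arrays, which spanned the KO range, and 5.84, 6.13 and 6.19 on the WT arrays. WT replicate 1 was the lowest array. The KO and WT arrays did not overlap for 5 of the 19, all higher in KO. Of all genes, 6.51% did not overlap and were higher, and 13.8% did not overlap in either direction. Among the 5 was Cbl, the ubiquitin ligase that retires activated Kit, at 7.74, 7.67 and 7.88 on KO arrays and 6.31, 6.64 and 7.55 on WT arrays (difference 0.93, adjusted p = 0.543). Stat5b, a transcription factor downstream of both kinases, was another, with a difference of 0.91. It read 6.61, 7.24 and 6.82 on KO arrays and 4.75, 6.60 and 6.59 on WT arrays. WT replicate 1 stood apart, and the other WT arrays lay just below KO replicate 1. Socs2, a feedback inhibitor, differed by -1.01 with an SE of 1.42.

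In the CD34 family, Podxl, the sialomucin podocalyxin, read 3.37, 3.62 and 3.28 on the KO arrays and 3.85, 3.92 and 3.72 on the WT arrays, without overlap but within the range of absent transcripts in both (difference -0.41, adjusted p = 0.66). Slc9a3r1, an adaptor that binds podocalyxin, differed by 0.39 and Crkl, an adaptor that binds CD34, by 0.17. Of 5 tested members of this list none passed, and the median was 0.17. The CD27 list gave 2 higher and 5 lower of 7 tested, with a median of -0.09 and none passing. Nfkb2, a mediator of the alternative NF-kB pathway, differed by 0.72, Traf5 by -0.42, Map3k14 by 0.27 and Siva1 by -0.27. Cd70, the ligand of CD27, read 2.17 to 3.09 on all arrays and lay under the filter.

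Surface markers that other schemes use for HSCs were higher in KO than in WT cells for 13 of 20 tested, with a median difference of 0.42, and none passed. Averaged over the 20, levels were 6.57, 6.65 and 6.04 on the KO arrays, 6.27, 6.17 and 6.38 on the Het arrays and 5.41, 6.15 and 6.27 on the WT arrays. WT replicate 1 was the lowest array, and the array labelled KO replicate 3 read below both other WT arrays. At an unadjusted p under 0.05, 5 were higher and 0 lower, where 5.4% and 2.81% of all genes were. Neo1, the netrin receptor neogenin, read 8.08, 7.66 and 5.63 on the KO arrays, 6.37, 7.07 and 6.27 on the Het arrays and 4.24, 5.01 and 4.74 on the WT arrays, without overlap between KO and WT (difference 2.46, adjusted p = 0.259). The array labelled KO replicate 3 was the lowest KO array for it. Tek, the angiopoietin receptor Tie2, differed by 1.69, Eng, endoglin, by 1.5 and Ctnnal1 by 1.30. WT replicate 1 was the lowest WT array for each of these 3, with Eng at 5.12 against 7.37 and 8.25 on the other WT arrays. Procr, the endothelial protein C receptor that many HSC gates use, read 6.63, 7.50 and 5.15 on the KO arrays and 5.05, 6.58 and 6.30 on the WT arrays (difference 0.45, adjusted p = 0.822), with overlap. For Het minus WT the median of the 20 was 0.44, with 14 higher and 6 lower, and for KO minus Het it was 0.08.

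Genes that mark HSCs and were not in the gate read higher in KO than in WT cells as a list. All 6 with a probe set were tested and all 6 were higher in KO than in WT, with a median of 1.47, though none passed. All 6 were also higher in Het than in WT, with a median of 0.73. KO and WT did not overlap for 5 of the 6, all higher in KO, against 6.51% of all genes. Het and WT did not overlap for 3, all higher in Het, against 4.51%. Procr and Tek also belong to the list of 20 surface markers above. Hoxb5, a homeobox gene of long-term HSCs, read 7.84, 7.52 and 7.12 on the KO arrays, 5.77, 5.25 and 6.35 on the Het arrays and 5.30, 4.89 and 5.58 on the WT arrays (KO minus WT 2.24, adjusted p = 0.0566). Mecom, a transcription factor that HSCs require, differed by 1.94 (adjusted p = 0.137) and Fgd5, used to tag HSCs in reporter mice, by 1.24 (adjusted p = 0.211), each without overlap. The mean over the 6 ranged from 6.78 to 7.37 on KO arrays, 6.35 to 6.79 on Het arrays and 5.01 to 6.13 on WT arrays. WT replicate 1 held the lowest value, with WT replicates 2 and 3 at 6.00 and 6.13. Slamf1 and Cd34 also averaged higher in KO than in WT. Whether the list varied with them over the arrays, and its part in their readings, was not tested.

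Antigens of mature cells, which a lineage-negative gate removes, were mostly at the level of absent transcripts. Of 16 with a probe set, 12 had a KO mean in that range, as did 12 for Het and 12 for WT, and 8 lay there on all 9 arrays. The mean over the 16 ranged from 3.77 to 4.19 on KO arrays, 3.64 to 3.98 on Het arrays and 3.78 to 3.90 on WT arrays. Of 11 tested, 3 were higher and 8 lower in KO than in WT, none passing. The 3 that were higher were Klrb1c, the NK cell receptor NK1.1, Itgam, the myeloid integrin CD11b, and Ptprc, the pan-leukocyte phosphatase CD45 that HSCs also carry. Klrb1c read 6.04, 7.07 and 6.14 on the KO arrays, 5.09, 4.24 and 4.02 on the Het arrays and 3.98, 4.95 and 3.77 on the WT arrays, without overlap between KO and the other genotypes (KO minus WT 2.18, adjusted p = 0.168). Itgam read 4.46, 4.57 and 6.10 on the KO arrays and 4.08, 3.84 and 3.57 on the WT arrays (difference 1.21, adjusted p = 0.563), with KO replicate 3 the highest. All 3 WT arrays of Itgam and 2 WT arrays of Klrb1c lay in the range of absent transcripts, so these differences have no firm size. Cd4 differed by -0.52.

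Markers of single lineages differed in whether they could be read at all. For T and NK cells 5 of 6 genes had means in the range of absent transcripts in each genotype, and for B cells 2 of 4. In KO with WT 1 of 5 tested T and NK genes (Klrb1c) was higher, with a median of -0.24, and 0 of 3 tested B cell genes, with a median of -0.45. The mean over the 7 granulocyte and monocyte genes ranged from 4.49 to 4.86 on KO arrays, 4.49 to 5.61 on Het arrays and 5.18 to 5.72 on WT arrays, without overlap between KO and WT. S100a8, a calcium-binding protein of neutrophils, read 5.34, 6.74 and 2.31 on the KO arrays, 5.06, 8.74 and 7.07 on the Het arrays and 8.97, 8.59 and 8.42 on the WT arrays (KO minus WT -3.86, adjusted p = 0.410), and S100a9 differed by -1.99. KO replicate 3 lay in the range of absent transcripts for S100a8, so that difference has no firm size. Of 6 tested, 1 (Itgam) was higher and 5 lower, with a median of -0.35. Elane differed by -0.22 and Mpo by -0.08, so the lower list mean in KO came mostly from S100a8 and S100a9. The mean over the 3 megakaryocyte genes ranged from 6.66 to 7.45 on KO arrays, 6.67 to 7.89 on Het arrays and 6.62 to 7.50 on WT arrays, and that over 2 erythroid genes from 4.44 to 5.52 on KO arrays, 4.63 to 5.31 on Het arrays and 4.36 to 4.66 on WT arrays. The part of granulocytic RNA in the lower Flt3 and higher Slamf1 and Cd34 readings of KO cells was not tested.

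Antigens that divide progenitors outside the stem cell gate went both ways, with 5 of 11 tested higher and 6 lower in KO than in WT, a median of -0.01 and none passing. Cd93, a C-type lectin receptor of early progenitors, differed by 0.92 and Fcgr2b, one of the Fc receptors blocked before staining, by -0.73, both without overlap. Csf2rb, the shared receptor chain of granulocyte-macrophage cytokines, differed by -0.96, also without overlap. Transcription factors known to act on Kit, Cd34 or Flt3 in blood cells were higher in KO than in WT for 11 of 14 tested, with a median of 0.44 and none passing. Averaged over the 15 with a probe set, levels were 7.58, 7.56 and 7.35 on the KO arrays, 7.36, 7.30 and 7.49 on the Het arrays and 6.75, 7.35 and 7.33 on the WT arrays, so that WT replicate 1 stood apart and KO replicate 3 read like the other WT arrays. The KO and WT arrays did not overlap for 4 of the 14, all higher in KO (6.51% of all genes). Among them were Lmo2 (0.87), a bridging factor of GATA complexes, Ldb1 (0.89) and Erg (0.85). For each of these, WT replicate 1 was the lowest array and WT replicate 3 lay just below the lowest KO array. The values were 8.15 against 8.19 for Lmo2, 8.83 against 8.85 for Ldb1 and 8.84 against 8.95 for Erg. Gata2, which binds GATAA, differed by 1.04 (adjusted p = 0.698), with WT replicate 1 at 5.13 and the other 8 arrays between 7.81 and 8.60.

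**Figure D5:**
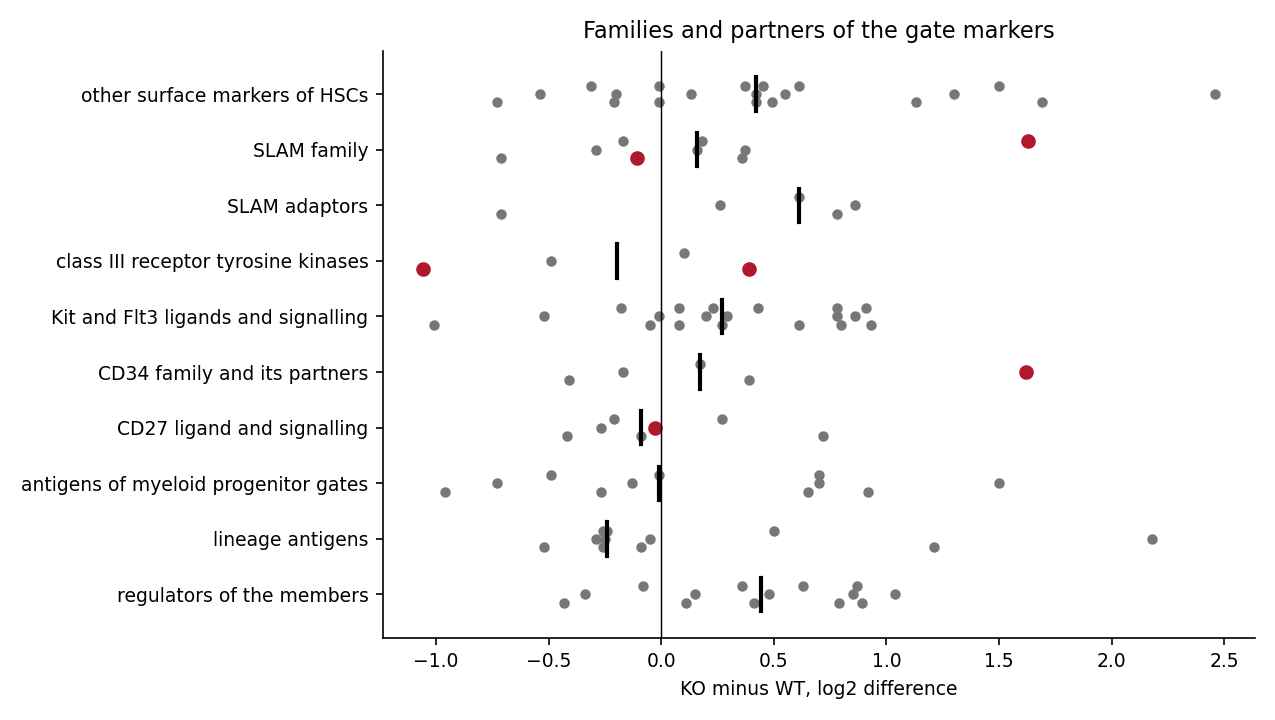
KO minus WT log2 differences (horizontal axis) of the tested genes in 10 lists of gate marker families, partners and other antigens (rows); each point is a gene, red points are gate markers and black bars list medians. Among the 10 lists drawn the medians ran from -0.24 for lineage antigens to 0.61 for SLAM adaptors, and no gene shown passed the test; the lists of markers of HSCs, progenitors and single lineages are not drawn.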

How the data were processed

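HSC samples of 3 genotypes (3 KO, 3 Het and 3 WT) were hybridised to 1 Affymetrix Mouse Gene 2.0 ST array each, after amplification by Ribo-SPIA and biotin labelling, per the labels' protocols. The deposited values are log2 summaries per probe set that the authors made with RMA, per the submitters' processing notes. Version and build were not given in the sources used here. RMA removes background and normalizes arrays to each other, which compresses dim transcripts. The number of arrays limits the precision.

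The platform annotation gave 1 gene symbol to 23521 of 41345 probe sets, several to 1814 and none to 16010. Symbols were updated by gene identifier (23328 matched, 193 not). For 22180 genes the brightest probe set on average was used, and the dimmest 25 percent (mean below 3.31) were dropped, which kept 16636. A mean per genotype was fitted over 9 arrays with limma 3.58.1 in R 4.3.3 (6 residual and 4.26 prior degrees of freedom). Adjusted p-values are two-sided Benjamini-Hochberg values over all genes tested. Pairs of members were tested by exact permutation of the 9 arrays in place of the resampling first planned. The fit was tried on simulated arrays with independent noise and added changes larger than any member difference. Those arrays held no outlying array, so the trial does not bear on the differences reported here. The labels call the replicates biological. The members and lists were chosen with earlier results of these data known. The genes named are the 6 members, up to 4 per list with the largest KO minus WT difference, Bcl11a, Ly6a, Cd244a, Procr, Kitl, Flt3l and Cd70, and the 3 genes most like each member over the arrays. Hlf, Il7r, Elane and Mpo were named outside this rule, after their values were seen. Alternatives changed the filter, normalization, model terms, weights and arrays.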

Additional observations from a re-analysis of the deposited data

Results flagged for a closer look

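Cd48 in Het and WT cells differed in sign between the sexes. Among arrays with high Xist, the single Het array read below both WT arrays (Het minus WT -0.49), and among the others both Het arrays read above the single WT array (0.88). The difference between the sexes, -1.38, had an adjusted p of 0.995 in a limma fit with an interaction of sex and genotype. Each sex held 1 to 2 arrays per genotype, and 3 of the 6 arrays read in the range of absent transcripts. Bcl11a in Het and WT cells did the same in the opposite sense, with Het minus WT at 0.34 among arrays with high Xist and -0.46 among the others (difference 0.79, adjusted p = 0.995). Groups of 3 arrays are too small for a test of single outlying arrays.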

How the results depend on the processing

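None of the 18 member differences crossed the adjusted threshold under any alternative (339 values, smallest adjusted p = 0.0921, for Cd34 in KO with WT under array weights), and 11 of the 18 kept their sign throughout. The 20 changes of sign concerned Cd48, Slamf1 in KO with Het, Kit in KO with Het, and Cd27; the cause was not tested. Cd48 KO minus WT was 0.06 when sex was a term and 0.08 when the interquartile range was one, which put Kit KO minus Het at -0.01. Slamf1 KO minus Het was 0.06 under array weights. Leaving out single arrays gave -0.46 to 0.14 for Cd48 KO minus WT, -0.29 to 0.33 for Cd48 Het minus WT, -0.43 to 0.18 for Cd48 KO minus Het, -0.67 to 0.36 for Cd27 KO minus WT, -0.06 to 0.95 for Cd27 Het minus WT, -0.61 to 0.14 for Slamf1 KO minus Het and -0.11 to 0.26 for Kit KO minus Het. Leaving out WT replicate 1 and KO replicate 3 together, chosen after seeing the data, gave -0.06 for Cd27 Het minus WT, 0.14 for Slamf1 KO minus Het and 2 genes called for KO with WT.

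The count of genes called for KO with WT, 7 over all genes, was 4 after a filter at the median level, 3 after a further quantile normalization, 3 when sex was a term, 24 under array weights and 1 with only the 2 genotypes in the fit. It was 0 in limma when the interquartile range was a term (1097 genes at an unadjusted p under 0.05) and 0 with the replicate number as a block (1288 genes). Leaving out single arrays gave 0 to 15, with 15 without KO replicate 3 and 0 without KO replicate 1 (963 genes at an unadjusted p under 0.05) or WT replicate 1 (943 genes), and every array but Het replicate 2 moved it by over 1.5 times. Same-numbered KO and WT arrays had deviations from their group means that correlated at -0.127, 0.011 and -0.185. For Het with WT the values were 0.034, 0.013 and 0.229, and for KO with Het -0.035, -0.018 and -0.142. So few values cannot settle whether the numbers pair the arrays. With the replicate block the member differences were the same and none was called. Flt3 lies under the stricter filter and has no value there, and no member had another probe set of its own to try.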
